A study of Mus musculus with 2 samples.

Results

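The suppressor of cytokine signalling (SOCS) family holds 8 genes in the mouse, Cish and Socs1 to Socs7, and their levels and transcripts were described in regulatory T cells by polyA plus RNA-seq. The members were taken by gene identifier from the GENCODE M21 tables, which list 55536 annotated genes and 141862 transcripts. All 8 were found, with 40 annotated transcripts. The members were set by name, with no measured value in the rule, although earlier results of these data were known. The sample came from 1 adult male mouse aged 4 months, and per the labels the 2 libraries are technical replicates of 1 biological sample. The strain joins Foxp3CreERT2, an allele in which the regulatory T cell gene Foxp3 drives a Cre recombinase that needs tamoxifen, with a Rosa26YFP reporter. The labels call the material primary cells that stem from a hematopoietic cell of the bone marrow, and give neither a sort nor a treatment. There is thus 1 group, no control group and no comparison between conditions.

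SOCS proteins are the feedback inhibitors of cytokine receptors that signal through Janus kinases (JAKs) and STAT transcription factors. Each carries an SH2 domain, which binds phosphorylated tyrosines on receptors or kinases, and a SOCS box, which recruits Elongin B, Elongin C and Cullin 5 as a ubiquitin ligase. SOCS1 and SOCS3 also hold a short region that blocks the kinase activity of JAKs directly. CIS (the product of Cish), SOCS1, SOCS2 and SOCS3 are made after cytokine stimulation, mostly through STATs, and in T cells interleukin 2 acts through STAT5 to raise Cish and Socs2. SOCS4 to SOCS7 have longer N-terminal regions and are better known for growth factor and insulin receptors.

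The stretches below come from RefSeq promoter windows on the GRCm38.p6 assembly. Those of Cish and Socs3 show where the STAT-type letters TTCNNNGAA stand, and that of Socs1 shows another pattern, described after them. The search covered both strands of windows from 250 bases before to 50 bases after the RefSeq start, and 4 of the 8 members have such a window (Cish, Socs1, Socs3 and Socs4). Capitals mark the matched letters, and every stretch is written 5′ to 3′ along the strand of its gene.
Cish, plus strand, chr9:107296654-107296683: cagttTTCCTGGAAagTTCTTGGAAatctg
Socs3, minus strand, chr11:117969501-117969530: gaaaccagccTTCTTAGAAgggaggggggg
Socs1, minus strand, chr16:10785597-10785626: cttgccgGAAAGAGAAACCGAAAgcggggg

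The Cish window held 2 STAT-type matches, which begin at bases 1 and 12 counted from the RefSeq start. The annotations differ here: the GENCODE transcript Cish-201 starts upstream, at 107296026, so that both matches lie inside its first exon. Of all 32851 windows, 8.30% held at least 1 match and 0.457% held 2 or more. Socs3 held 1 match, whose first base is at -154 from the RefSeq start, while Socs1 and Socs4 held 0. The annotations differ for Socs3 too: the GENCODE transcript Socs3-201 starts downstream, at 117969186. The Socs3 window ends at 117969317 and does not reach that start. The related letters with a spacer of 4 bases were in 6.95% of windows and in none of these 4. In Socs1 the capitals mark another pattern, GAAA, any 2 bases, GAAA, the letters of sites bound by interferon regulatory factors. This pattern was searched after the sequences were seen. Socs1 held 2 overlapping copies, beginning at -83 and -77 from the start, and the pattern stood in 3.44% of all windows and at least 2 times in 0.225%. A match is a description of letters and not of binding.

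Library 1 had 15821875 estimated counts on annotated genes and library 2 had 16153671. Levels are given in TPM, a share of all transcripts in which the authors' estimate divides the count by transcript length. Means carry the SD of the 2 libraries (n = 2), and this SD covers technical variation only. Intervals for counts are 95% Poisson intervals and cover counting error only. The 7 genes listed as markers of regulatory T cells include Cd3e and Cd4, which other T cells also express. All 7 were at 1 TPM or more in both libraries, from Foxp3, the lowest, at 39.7 ± 4.91 TPM to Cd3e at 1023 ± 39.3 TPM. Of the other lineages, 1 of 5 B cell markers reached this level (summed level 35.1 TPM in library 1 and 35.3 TPM in library 2, nearly all Cd79b). So did 1 of 8 myeloid and dendritic cell markers (5.24 and 4.4 TPM, mostly Cd68 at 3.72 and 2.23 TPM, with Itgam at 21 and 20 counts and Itgax at 0), 4 of 6 CD8 T and NK cell markers (40.4 and 44.3 TPM, mostly Gzmb at 25.2 and 25.9 TPM and Cd8b1 at 10.8 and 14.3 TPM, with Cd8a at 2.18 and 1.82 TPM and Ncr1 at 1 and 0 counts), and 2 of 6 red cell and platelet markers (12.6 and 9.80 TPM, mostly Hbb-bs at 8.94 and 5.71 TPM and Hba-a1 at 1.68 and 2.91 TPM, with Pf4 at 0 counts). Near-equal sums hide markers that differed between the libraries. Ms4a1, a B cell marker, had 30 and 3 counts, and Csf1r, a myeloid marker, had 44.2 and 11.8. Both were lower in library 2, while Cd8b1 was higher there. The part of these cells in the results was not tested. In a bulk sample, fewer cells of a type and less RNA per cell cannot be told apart.

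All 8 members were expressed, taken as 1 TPM or more in both libraries, a level that 24.3% of the 55536 annotated genes reached. These annotated genes include pseudogenes and noncoding genes, and the share among protein-coding genes alone was not computed. The same share and limit stand beside the gene lists below. The family spanned a wide range, with Cish 18.9 times the level of Socs1 by mean TPM. The median of the 8 was 8.46 TPM, beside 0.985 TPM over the 29307 genes with any count and 18.5 TPM over the 10251 expressed protein-coding genes. Cish and Socs1 to Socs3 summed to 142 TPM in library 1 and 135 TPM in library 2, or 83.6% and 83.0% of the family's TPM. Socs4 to Socs7 summed to 27.8 and 27.6 TPM.

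**Figure D1:**
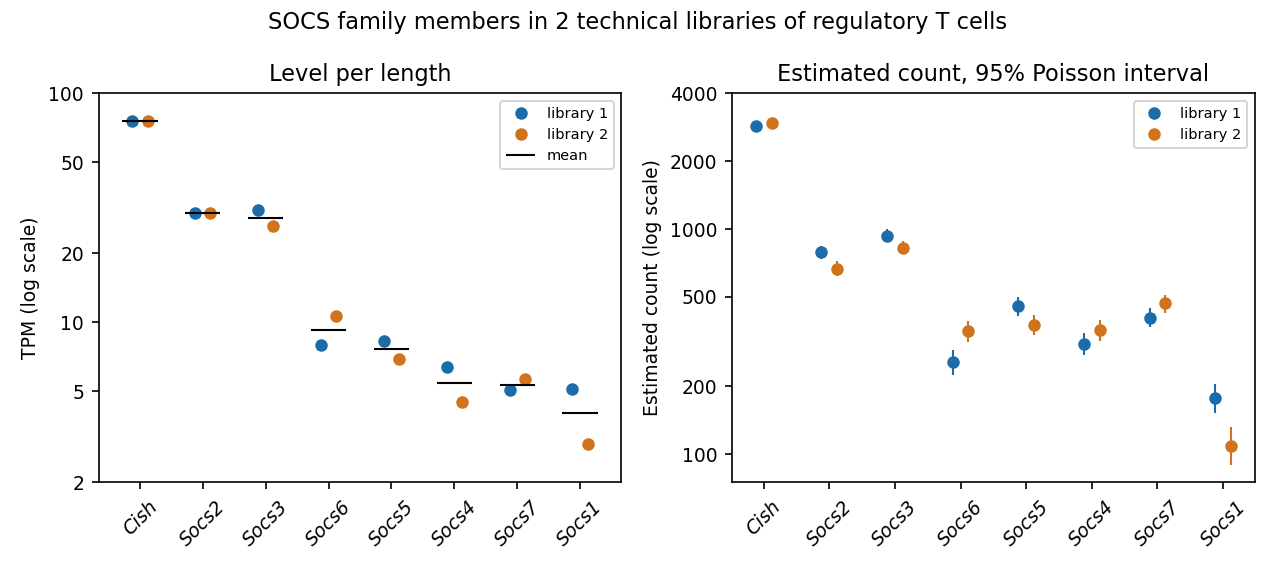
TPM (left, log scale) and estimated count (right, log scale) of the 8 SOCS family genes, ordered by mean TPM, with 1 point per library, black lines for the means and bars for exact 95% Poisson intervals of the counts. Cish stands at 75.9 and 75.8 TPM, Socs2 and Socs3 between 26.4 and 30.9 TPM, and the other 5 members at or below 10.6 TPM.

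Cish encodes CIS, which binds activated receptors such as that of interleukin 2 and limits STAT5 signalling. Cish (ENSMUSG00000032578.7, mm10 chromosome 9, 107296026 to 107302784, plus strand) stood at 75.9 TPM in library 1 and 75.8 TPM in library 2. The libraries were thus nearly equal, at a mean of 75.8 ± 0.064 TPM. The counts were 2880 (interval 2776 to 2987) and 2969 (2863 to 3078). Cish alone held 44.8% of the family's TPM in library 1 and 46.6% in library 2. It lay at the 84.1 percentile among the expressed protein-coding genes, the highest place in the family. The deposited TPM lay above its own credibility interval in both libraries, which ran from 65.6 to 72.2 TPM in library 1 and from 65.6 to 71.8 TPM in library 2. The posterior mean TPM, another deposited estimate, was 68.9 and 68.6 TPM.

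Socs2 encodes a protein best known for limiting growth hormone signalling. Socs2 (ENSMUSG00000020027.18, chromosome 10, 95385362 to 95417180, minus strand) stood at 29.92 and 30.02 TPM, a mean of 29.97 ± 0.071 TPM. By TPM the libraries were level, but the counts fell from 787 in library 1 to 665 in library 2. The effective length by which the count was divided was also shorter in library 2, 1699 against 2115 bases.

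Socs3 encodes an inhibitor that binds gp130, the shared receptor chain of the interleukin 6 family. Socs3 (ENSMUSG00000053113.3, chromosome 11, 117966079 to 117970047, minus strand) stood at 30.9 and 26.4 TPM, a mean of 28.6 ± 3.16 TPM, from 934 and 827 counts. Library 1 was the higher of the libraries. The ranges of Socs2 and Socs3 over the libraries overlapped, so their order is not fixed, while Cish lay above both without overlap, at 2.53 times the mean of Socs2.

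Socs1 encodes a strong inhibitor of interferon and common gamma chain cytokine signalling in lymphocytes. Socs1 (ENSMUSG00000038037.5, chromosome 16, 10782240 to 10785536, minus strand) stood at 5.09 TPM in library 1 and 2.93 TPM in library 2. Its mean of 4.01 ± 1.53 TPM was the lowest of the family, at the 14.8 percentile of expressed protein-coding genes. The counts were 177 (152 to 205) and 109 (89.5 to 131). Library 2 was the lower by both measures, and Socs1 was the only member whose deposited credibility intervals did not overlap between the libraries (3.90 to 5.24 TPM and 2.22 to 3.22 TPM).

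The members with longer N-terminal regions stood close together. Socs6 encodes a protein that binds receptor tyrosine kinases such as KIT. Socs6 (ENSMUSG00000056153.15, chromosome 18, 88665224 to 88927481, minus strand) stood at 7.97 and 10.6 TPM, a mean of 9.30 ± 1.88 TPM, from 256 and 352 counts. Socs5, which acts on the receptors of interleukin 4 and epidermal growth factor (ENSMUSG00000037104.9, chromosome 17, 87107679 to 87137839, plus strand), stood at 8.32 and 6.90 TPM, from 453 and 376 counts. Its mean was 7.61 ± 1.00 TPM. These genes moved in opposite directions between the libraries, and their ranges overlapped.

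Socs4 encodes the closest relative of SOCS5. Socs4 (ENSMUSG00000048379.9, chromosome 14, 47276931 to 47296102, plus strand) stood at 6.40 and 4.47 TPM, a mean of 5.44 ± 1.36 TPM, from 308 and 355 counts. TPM was higher in library 1 and the count in library 2. Socs7, which binds insulin receptor substrates (ENSMUSG00000038485.5, chromosome 11, 97362551 to 97398542, plus strand), stood at 5.06 and 5.63 TPM, a mean of 5.35 ± 0.403 TPM, from 404 and 467 counts. The ranges of Socs4 and Socs7 overlapped, as did those of Socs7 and Socs1. Among neighbours in the order, Cish from Socs2, Socs3 from Socs6 and Socs5 from Socs4 were separated without overlap, at 2.53, 3.08 and 1.40 times. The last is the least firm. In library 1 the deposited credibility intervals of Socs5 and Socs4 overlapped, at 6.84 to 8.31 and 4.36 to 7.45 TPM. In library 2 they did not, at 5.62 to 7.03 and 3.38 to 5.22 TPM.

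The order depends on length. By CPM, the estimated count scaled to the library total with no division by length, Socs3 came before Socs2, Socs7 rose from place 7 to place 4 and Socs6 fell from 4 to 7, while Cish stayed first and Socs1 last. The annotated Socs7 transcript that leads is 7015 bases long, so a given TPM yields more counts than for Socs1 at 2908 bases.

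Transcript estimates showed where length and level are tied. Of the 40 annotated transcripts, 32 had a TPM above 0 in either library, and 17 held 10% or more of their gene's TPM in either library. The share of these 17 differed between the libraries by a median of 6.71 points and by up to 47.8 points. The transcript leading by TPM was the same in both libraries for 6 of 8 members, all but Socs1 and Socs6, and by count for 7, all but Socs6. These shares are model estimates, in which reads that match several transcripts of a gene are divided among them.

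**Figure D2:**
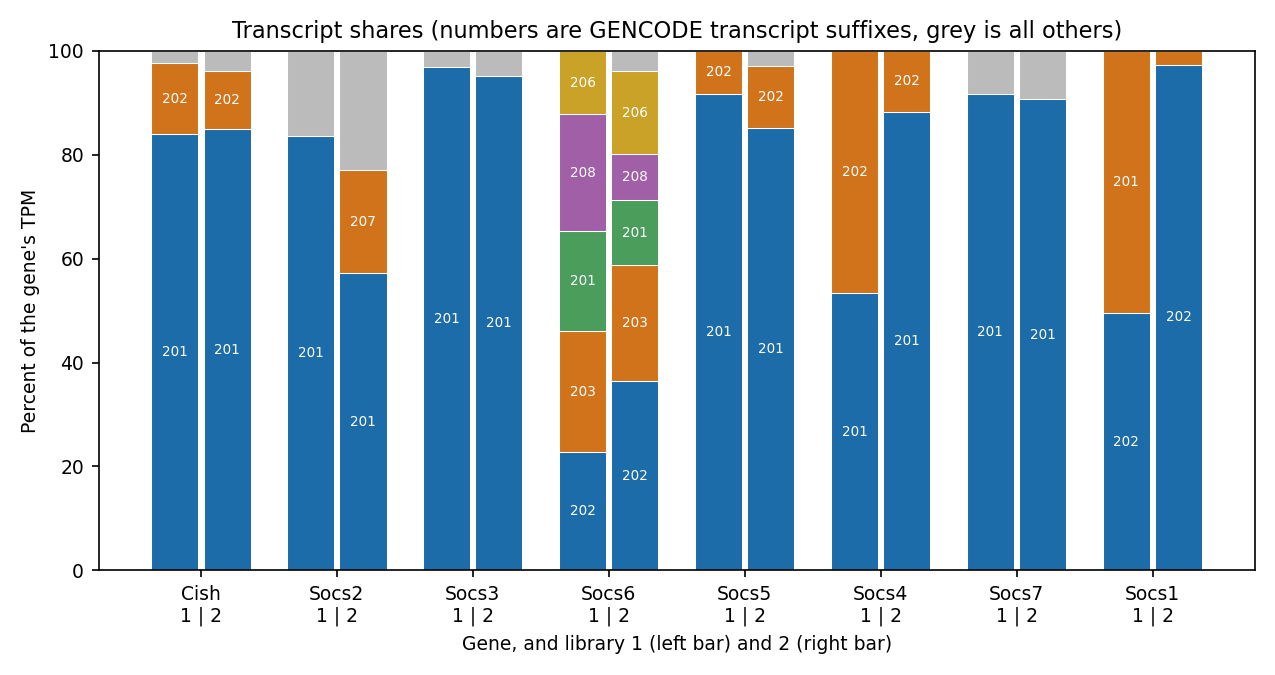
Percent of each gene's TPM given to its transcripts in library 1 (left bar) and library 2 (right bar), for transcripts with 10% or more in either library, and all others in grey. Colours follow the order within a gene only. Cish, Socs3, Socs5 and Socs7 keep 1 leading transcript at 83.9% or more, and Socs1, Socs2, Socs4 and Socs6 shift between the libraries.

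Single transcripts led 4 genes with close values in both libraries. Socs3-201, with 675 coding bases, held 96.9% and 95.2% of Socs3 TPM. Socs7-201, with 1737 coding bases, held 91.6% and 90.7%. Socs5-201, with 1608 coding bases, held 91.7% and 85.1%, and the noncoding Socs5-202 held 8.34% and 11.8%. Cish-201, with 771 coding bases, held 83.9% and 84.9% of Cish TPM from 2218 and 2349 counts. Cish-202, a noncoding processed transcript of 4697 bases, held 13.7% and 11.3%, from 602 and 517 counts. In these genes the spread of the leading share was at most 6.52 points.

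Socs4 showed the tie of level to assignment most plainly. Socs4-201, a transcript of 6877 bases with 1308 coding bases, was given 290 and 352 counts, or 3.41 and 3.95 TPM. Socs4-202, a transcript of 538 bases annotated with 388 coding bases, was given 18.1 and 3.34 counts, or 2.98 and 0.520 TPM. So 5.89% of the Socs4 count in library 1 made up 46.6% of its TPM, and 0.941% in library 2 made up 11.7%. The weighted length of the gene went from 3922 to 6134 bases. Only 47 windows of 50 bases occur in Socs4-202 and not in Socs4-201. The following GENCODE M21 transcript sequences, on mm10 chromosome 14, plus strand, show the point where they part, with the 15 bases after position 47289757 in capitals.
Socs4-201, which runs on to 47289758: aatctgaagccatagGTACTGTTGAGAATG
Socs4-202, which joins to 47289797: aatctgaagccatagAAAGGCAGCTTAGCT

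In Socs2 the split between transcripts also differed between the libraries. Socs2-201, with 594 coding bases, held 83.6% of Socs2 TPM in library 1 and 57.2% in library 2, from 675 and 486 counts. Socs2-207, a noncoding processed transcript of 874 bases, had 0 counts in library 1 and 64.5 in library 2, where it held 19.96% of TPM. Both are the model's assignments among overlapping transcripts, and by posterior mean Socs2-207 held 1.90% and 20.02% of Socs2 TPM. Socs2 has 14 annotated transcripts, of which 4 have no window of 50 bases of their own.

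Socs1 has 2 annotated transcripts with the same 636 coding bases. Socs1-201 was given 87.4 counts in library 1 and 2.78 in library 2, or 50.5% and 2.66% of Socs1 TPM. Socs1-202 was given 89.7 and 106 counts, or 49.6% and 97.3%. These are near-identical transcripts, with 46 and 169 windows of their own, and the shares of Socs1-201 by posterior mean were 45.1% and 34.2%. Their lengths of 2785 and 2908 bases are close, and the weighted length of Socs1 was 2846 and 2905 bases.

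Socs6 was the most divided. Socs6-202 held 22.8% and 36.5% of its TPM, Socs6-203 held 23.3% and 22.2%, and Socs6-201 held 19.3% and 12.6%, all with the same number of coding bases, 1599. The short Socs6-208, of 453 bases, held 22.4% and 8.77%, and Socs6-206, of 370 bases, held 12.2% and 16.0%. By counts, Socs6-201 led library 1 with 114 and Socs6-202 led library 2 with 145. The number of windows found in no other Socs6 transcript was 3005 for Socs6-201, 89 for Socs6-206, 49 for Socs6-202, 13 for Socs6-203 and 2 for Socs6-208.

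Setting each gene to 1 transcript length, that of its leading transcript by count summed over the libraries, moved the levels of some members. Socs6 fell from a mean of 9.30 TPM to 3.97 TPM and Socs4 from 5.44 to 3.81 TPM. The Socs6 value rests on a near tie: Socs6-201, of 6036 bases, had 219 counts over both libraries and Socs6-202, of 2921 bases, had 210. With the length of Socs6-202 the Socs6 mean was 8.28 TPM, within 1 SD of the deposited level. Cish came to 82.7 and 81.3 TPM, still the highest. Socs2 became 29.1 and 23.5 TPM, so that its log2 ratio of library 2 over library 1 went from 0.00 to -0.31. For Socs4 the log2 ratio of TPM went from -0.52 to 0.14. Counting protein-coding transcripts only lowered Cish to 66.3 TPM and Socs2 to 23.3 TPM, and put Socs3, at 27.5 TPM, ahead of Socs2. All of these settings were added after the data were seen.

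**Figure D3:**
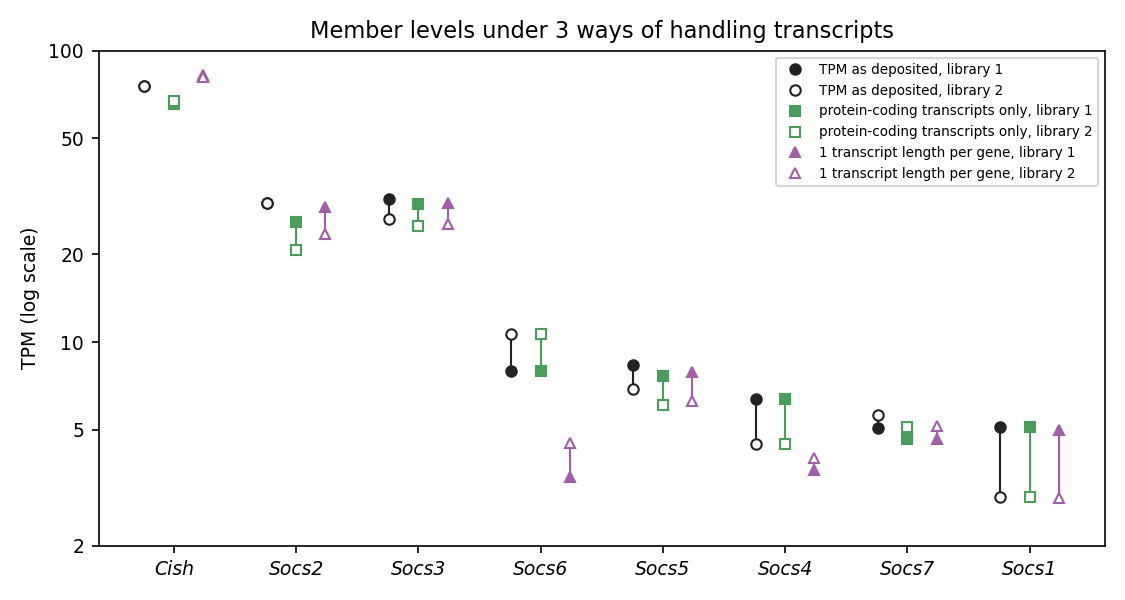
TPM (log scale) of each member as deposited, over protein-coding transcripts only, and with 1 transcript length per gene, with filled symbols for library 1 and open symbols for library 2. Cish is highest under each, while Socs6 stands at 3.44 and 4.51 TPM with 1 length per gene, here that of Socs6-201.

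How far the members differed between the technical libraries sets the precision of their levels. The exact binomial test on rounded estimated counts, adjusted by the Benjamini-Hochberg method over the 17458 genes whose summed count reached 10, called 5 of the 8 members. It called 25.1% of all genes tested, and 31.8% of those with a summed count of 200 or more, a minimum that all 8 members pass. The test compares 2 libraries of 1 mouse and takes counting error as the only error, so it says nothing about a condition.

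Of the members called, 4 were higher in library 1, a direction called for 13.4% of genes, and 1 was higher in library 2, called for 11.8%. Socs1 had the largest difference, a log2 ratio of library 2 over library 1 of -0.73, and the exact binomial test gave it an adjusted p of 0.000334. Socs5, Socs2 and Socs3 had log2 ratios of -0.30, -0.27 and -0.21, with adjusted p of 0.0170, 0.00274 and 0.0160 in the same exact test. Socs6 was higher in library 2, with a log2 ratio of 0.43, and the exact test gave an adjusted p of 0.00260. Socs7, Socs4 and Cish were not called, with log2 ratios of 0.18, 0.17 and 0.01 and adjusted p of 0.188, 0.284 and 0.881 in the exact test.

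These calls rest on counting error as the only spread. With a 1.5-fold difference required as well, 1 member was called, Socs1, beside 8.82% of all genes. The edgeR exact test, with the common dispersion of 0.017 taken over both libraries as 1 group, called 0 of the 8 members and 2.00% of all genes. That test counts the differences between these same 2 libraries as spread, so few calls follow from its setting and it is no independent check. In that test only Socs1 had an unadjusted p under 0.05, at 0.0245, with an adjusted p of 0.368.

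**Figure D4:**
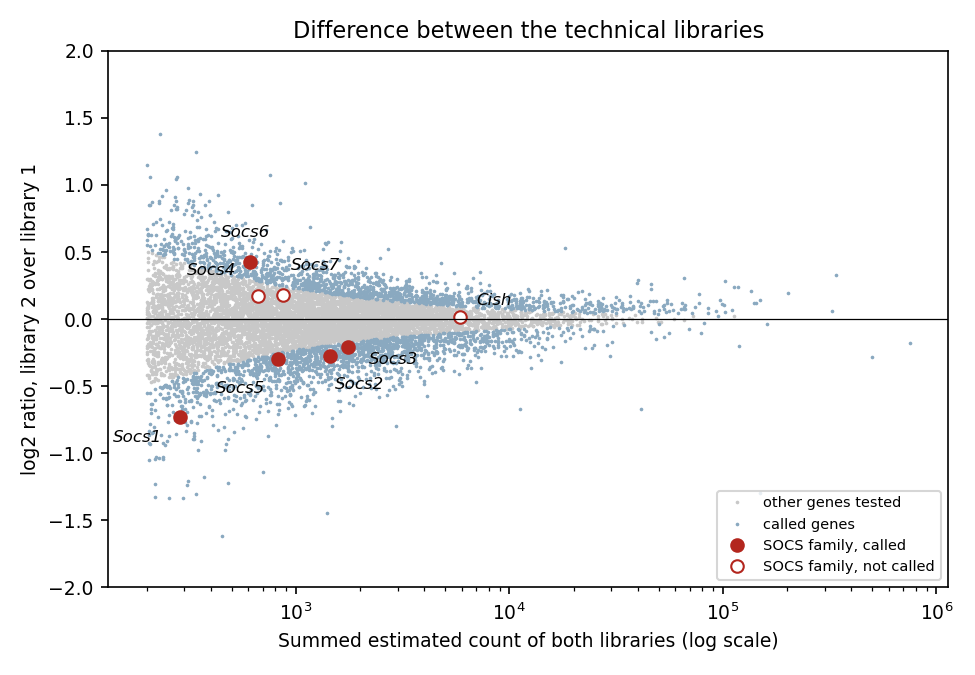
Log2 ratio of library 2 over library 1 against the summed estimated count (log scale) for the 9741 genes whose summed count reached 200, with genes called by the exact binomial test in blue and the SOCS family in red, filled where called. The axis ends at a log2 ratio of 2 in either direction and leaves out 4 genes, and Socs1 has the lowest ratio of the family at -0.73.

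The smaller deposited gene tables hold whole-number counts on an older annotation, 3746426 in library 1 and 3680387 in library 2. They gave Cish 602 and 635 counts, Socs3 163 and 129, Socs5 99 and 87, Socs4 69 and 39, and Socs2 60 and 54. Socs6 had 46 and 40 counts, Socs1 22 and 17, and Socs7 17 and 8. Cish was again first, and no member was higher in library 2 apart from Cish. In these tables the same exact binomial test called 1 of 8 members, Socs4, with a log2 ratio of -0.81 and an adjusted p of 0.0485, beside 10.5% of the 11114 genes tested. The direction of Socs4, Socs6 and Socs7 was the reverse of that in the larger tables.

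Little annotated sequence was shared with other genes on the same strand for most members, while reads themselves were not examined. Of the 50-base windows of Socs1, Socs3, Socs5 and Socs7, 0% occur in another gene on the same strand, and no window is shared between members. The share was 0.137% for Cish, 0.306% for Socs4, 4.53% for Socs2 and 6.15% for Socs6. The pseudogenes behind most of the last 2 shares, Gm9847 and Gm9449, had 0 counts in both libraries. The annotated antisense gene Gm17041 (chromosome 9, 107300380 to 107301838, minus strand) lies across Cish, and 9.35% of the Cish windows occur on the opposite strand of another gene. Whether the tables were made with strand is not given in the sources used here. Gm17041 had 53.5 and 6.18 counts, beside 2880 and 2969 for Cish. Gm17040, a pseudogene that also overlaps Cish on the opposite strand, had 4 and 6 counts. The 3 processed pseudogenes annotated within Socs6 (AC118614.1, AC122398.2 and AC122398.3) had 0 counts.

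For the proteins that SOCS boxes work with, only the RNA of their genes was measured. All 11 listed ligase partners were expressed, with a median of 81.0 TPM. Elob and Eloc, the Elongin B and Elongin C genes, stood at 489 ± 7.16 and 176 ± 7.42 TPM. Cul5, the Cullin 5 scaffold, stood at 30.7 ± 1.78 TPM and Rnf7, its RING partner, at 77.6 ± 5.04 TPM. Ube2d3, a ubiquitin-conjugating enzyme gene, was at 281 ± 17.4 TPM, and Cul2, another scaffold gene, was lowest at 26.1 ± 6.47 TPM. Between the libraries, the exact binomial test called 2 of the 11 higher in library 2 and 3 in library 1, beside 11.8% and 13.4% of all genes tested. These calls, and those of the lists that follow, rest on counting error alone. Every partner thus stood above Socs4, Socs5, Socs6, Socs7 and Socs1.

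Of 27 other genes with a SOCS box, 13 were expressed, and the median was 0.775 TPM. The share over all annotated genes, pseudogenes and noncoding genes included, was 24.3%, so it is not a like-for-like background. Wsb1 led at 62.1 ± 4.00 TPM, ahead of Asb3 at 46.8 ± 2.53 TPM, both below Cish. Asb10, Asb11, Asb12, Asb16 and Asb17 were at 0 counts in each library, and their RNA was not detectable. Of 14 tested, 2 were called higher in library 2 and 3 in library 1, again beside 11.8% and 13.4% of all genes.

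Other inhibitors of the same pathway were all expressed, 12 of 12, with a median of 58.6 TPM. The phosphatase genes Ptprc (CD45) and Ptpn6 (SHP-1) stood highest, at 1057 ± 3.09 and 139 ± 0.778 TPM, both above Cish. The adaptor gene Sh2b3, at 8.99 TPM in library 1 and 8.98 TPM in library 2, and the phosphatase gene Ptpn11, at 5.72 ± 0.290 TPM, stood lowest, near Socs6 and Socs4. Of the 12, 2 were called higher in library 2 and 0 in library 1, against 11.8% and 13.4% of all genes.

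The kinases and factors that SOCS proteins inhibit or answer to were all expressed. The 11 JAKs and STATs had a median of 42.8 TPM. Jak2 at 16.3 ± 3.07 TPM and Jak3 at 16.9 ± 1.60 TPM were the lowest, and Jak1 stood at 296 ± 30.7 TPM. Of these 7 were called higher in library 1 and 0 in library 2, where the shares of all genes were 13.4% and 11.8%, and 31.8% were called in either direction among genes whose summed count reached 200. Of 25 receptors and substrates on which SOCS proteins act, 15 were expressed, with a median of 15.6 TPM over the list. Il2rg, the common gamma chain, and Il2rb, the beta chain of the interleukin 2 receptor, stood at 1486 ± 2.57 and 410 ± 23.2 TPM. The receptor genes Csf3r and Epor had 0 counts. Of 20 tested, 3 were called higher in library 2 and 5 in library 1, with 11.8% and 13.4% over all genes.

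A list of other STAT5 response genes, not all of them typical of T cells, was set beside Cish and Socs2. Its levels ran from 0.780 to 593 TPM. That range is wide enough to hold every SOCS family member, so lying within it sets none of them apart. The list shares Foxp3 and Il2ra with the regulatory T cell markers and Gzmb with the CD8 T and NK cell markers. Of 14 such genes 13 passed 1 TPM in both libraries, with a median of 64.6 TPM, below Cish and above Socs2. The cyclin gene Ccnd2 and the kinase gene Pim1 led at 593 ± 24.5 and 366 ± 8.97 TPM. Osm, a cytokine gene, stood at 13.8 ± 0.078 TPM and Igf1, a growth factor gene, at 0.780 ± 0.495 TPM. Of the 14, 1 was called higher in library 2 and 4 in library 1, with all genes at 11.8% and 13.4%.

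**Figure D5:**
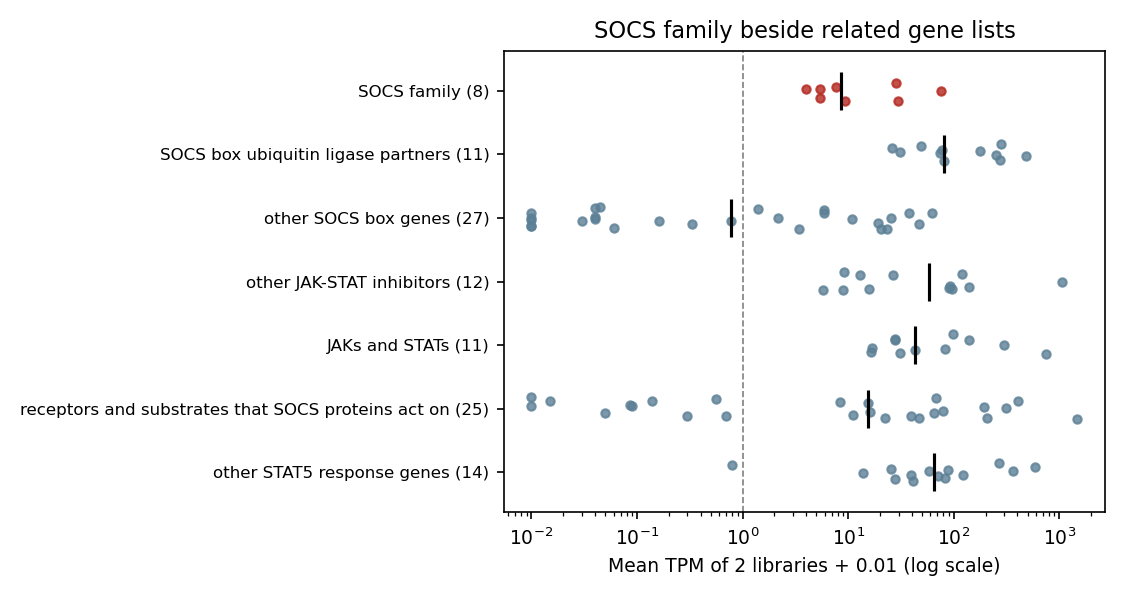
Mean TPM of the 2 libraries plus 0.01 (log scale) for each gene of the SOCS family (red) and of 6 related lists (blue), with black bars for the list medians and a dashed line at 1 TPM. The 8 SOCS genes all lie right of the line with a median of 8.46 TPM, left of the median of 81.0 TPM of the ligase partners.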

How the data were processed

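PolyA plus RNA-seq was measured in 2 technical libraries of 1 mouse. The authors deposited estimated counts (expected counts) per gene and transcript with GENCODE M21 on mm10, with column names that RSEM writes, per the file headers. Deposited TPM and FPKM values were scaled by the authors for length and depth. The percent of a gene's TPM given to each transcript is also deposited, per the file headers. The smaller tables hold deposited whole-number counts with GENCODE M4. The aligner, the counting tool, the strand setting, the handling of multi-mapping reads and the level of the credibility interval were not given in the sources used here. In the smaller tables, M21 matched 22195 of 22457 identifiers.

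The members and gene lists were chosen with earlier results of these data known. Estimated counts were rounded, library sizes scaled by TMM (edgeR 4.0.16, R 4.3.3), and libraries compared by an exact two-sided binomial test conditional on the summed count, with Benjamini-Hochberg adjustment over all genes at 0.05. It was tested on simulated counts with counting error only, which cannot show how it behaves with the wider spread of these libraries. A prior count of 0.5 was used in log2 ratios of library 2 to library 1. A model of dispersion per gene was not possible with 1 library on each side. Windows of 50 bases were taken from GENCODE M21 transcripts, and promoters from RefSeq. Other tools were DESeq2 1.42.0 (size factors), Python 3.11.15 and scipy 1.17.1. Named genes are the 8 members, their transcripts with 10% or more of TPM in either library, genes overlapping a member, the highest 2 and lowest 2 of each related list, and Elob, Eloc, Cul5 and Rnf7; some of these are not reported here. Genes sharing windows, and those named for 0 counts, were chosen after their values were seen. Alternatives were other scalings, count minimums, estimates, tests, tables, expression thresholds and leaving out each library. Protein sequences were not used here.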

Additional observations from a re-analysis of the deposited data

How the results depend on the processing

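No paired analysis was possible because all samples form 1 group. The count of 5 members differing between the libraries was 1 in the smaller gene tables, 0 in the edgeR exact test with common dispersion and 1 with a 1.5-fold difference added. It was 5 with total counts, DESeq2 size factors, upper quartile, no count filter and a summed count of 50 or more. In the smaller gene tables the log2 ratio turned to -0.81 for Socs4, -0.19 for Socs6 and -1.03 for Socs7, and the cause was not tested. All 8 members were expressed also by posterior mean TPM, and 6 at 5 TPM, without Socs1 and Socs4. The threshold of 0.5 TPM is below the main one, so it could only give 8 and is no check. Level moved by more than 1 SD for 6 members as FPKM and for 6 when scaled over protein-coding genes. Both settings multiply all genes of a library by 1 factor, so these moves are a change of unit. By posterior mean 2 members moved, Cish and Socs2, whose SDs were only 0.064 and 0.071 TPM. Of 17 transcript shares, 12 moved by more than 1 SD when taken from counts. Cish was first by deposited TPM, by CPM, in the smaller gene tables, over protein-coding transcripts only and with 1 transcript length per gene. Depth limits Socs1 most, at 109 to 177 counts.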

Other observations

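The SOCS genes had higher ratios of estimated count to the count in the smaller gene tables than the median gene. The median ratio over 8856 genes whose summed estimated count reached 200 was 2.52. Every member lay above it, from Socs5 at 4.46 (76.1 percentile) and Cish at 4.73 to Socs2 at 12.7 (92.1 percentile) and Socs7 at 34.8 (96.5 percentile). Socs7 had 871 estimated counts over both libraries and 25 counts in the smaller tables.

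Gm17041, the annotated antisense gene across Cish, went from 53.5 counts in library 1 to 6.18 in library 2. This is a log2 ratio of -3.07, while Cish on the opposite strand had a log2 ratio of 0.01. The exact binomial test with Benjamini-Hochberg adjustment gave Gm17041 an adjusted p = 3.69e-09. The test takes counting error as the only error and called 25.1% of all genes between these technical libraries. The strand setting is not given, and whether reads were divided differently between Cish and Gm17041 in the 2 libraries was not tested.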
